A study of Mus musculus with 4 samples.

Results

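The genes described are 9 receptors through which mouse marrow myeloid cells sense growth factors and chemokines: Csf3r, Csf1r, Csf2ra, Csf2rb, Csf2rb2, Il3ra, Il6ra, Cxcr2 and Cxcr4. They were taken by symbol from a list of receptors with these roles, not by a threshold on their values. Of the 9, 7 had a probe group, called a transcript cluster, that named that gene alone, among 30707 named genes, and Csf2rb and Csf2rb2 were not analysed here. Each of the 7 had 1 such cluster. All 7 also reached the level filter, a mean log2 value of 5.235 or more over the arrays, which 17209 genes passed.

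The data are 4 Affymetrix arrays of bone marrow RNA, 1 for each of 4 groups of mice: Astragalus membranaceus (a root of Chinese medicine, called astragalus here), electro-acupuncture, cisplatin (a platinum chemotherapy that damages DNA and depresses marrow) and control. All groups are described as 2 weeks of treatment, tibial marrow spun from the bone, and mixing of marrow samples before extraction, with n = 6 stated once and not per group. The sources used here do not give strain, age or dose, nor whether the astragalus and electro-acupuncture mice also received cisplatin. Each of these groups is therefore set against cisplatin and against control. Array medians over all clusters ran from 5.15 (astragalus) to 5.31 (electro-acupuncture), and the astragalus array had a wider spread, 7.20 between its 5th and 95th percentiles against 6.80 to 6.83 on the others. The tissue label fitted its markers: the neutrophil gene S100a8 was at the ceiling of 19.93 on all 4 arrays, while the 3 skeletal muscle genes above the filter stayed between 5.16 and 5.92. With 1 array per group there is no replicate error and neither test nor p-value, and precision is limited by that number. In whole marrow, fewer cells of a type and less RNA per cell cannot be told apart.

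Csf3r, the receptor of G-CSF, drives neutrophil production, and Csf1r, the tyrosine kinase receptor of M-CSF and IL-34, does the same for monocytes and macrophages. Csf2ra and Il3ra are the ligand-specific chains for GM-CSF and IL-3 and signal through a shared beta chain, encoded by Csf2rb, while the mouse has a second beta chain for IL-3 alone, encoded by Csf2rb2. Il6ra binds IL-6 and signals through gp130, the product of Il6st. Cxcr4 and Cxcr2 are G protein-coupled receptors that pull in opposite directions: CXCL12 made by stromal cells holds neutrophils and progenitors in marrow through CXCR4, and the chemokines bound by CXCR2 draw mature neutrophils into blood.

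The promoters of the 3 receptors whose level varied most over the arrays are shown, because the myeloid transcription factors PU.1 (gene Spi1) and C/EBP alpha (gene Cebpa), known to drive the human G-CSF and GM-CSF receptor promoters, were measured on the same arrays. Each is the 250 bases upstream of a RefSeq start in build GRCm38.p6, written 5′ to 3′ on the gene's strand. Capitals mark GAGGAA, the PU.1 core, and ATTGC, a short C/EBP site, searched on both strands. The windows lie at chr4:126024409-126024658 (plus strand) for Csf3r, chr19:61228419-61228668 (minus strand) for Csf2ra and chr1:128592300-128592549 (minus strand) for Cxcr4. The Csf3r and Csf2ra windows overlap the spans of their genes, chr4:126023441-126044975 and chr19:61217191-61228461, so the starts used there are not the outermost.
Csf3r: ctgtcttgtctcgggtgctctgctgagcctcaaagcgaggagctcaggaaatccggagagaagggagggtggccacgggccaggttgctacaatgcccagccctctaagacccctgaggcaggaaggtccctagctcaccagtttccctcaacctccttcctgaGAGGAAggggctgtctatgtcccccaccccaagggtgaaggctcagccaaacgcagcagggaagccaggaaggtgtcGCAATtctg
Csf2ra: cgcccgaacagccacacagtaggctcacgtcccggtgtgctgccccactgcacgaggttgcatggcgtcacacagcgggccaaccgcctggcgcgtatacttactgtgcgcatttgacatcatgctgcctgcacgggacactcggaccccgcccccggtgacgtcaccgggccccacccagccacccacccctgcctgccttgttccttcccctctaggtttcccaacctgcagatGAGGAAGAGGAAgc
Cxcr4: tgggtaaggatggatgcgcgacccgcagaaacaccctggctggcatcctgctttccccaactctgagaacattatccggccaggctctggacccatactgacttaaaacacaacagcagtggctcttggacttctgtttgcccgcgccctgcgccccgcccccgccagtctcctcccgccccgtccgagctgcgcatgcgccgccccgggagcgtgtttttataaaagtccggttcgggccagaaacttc

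The Csf3r window held 1 GAGGAA, with its first base at -86, and 1 ATTGC on the opposite strand at -9. The Csf2ra window held 2 adjoining copies of GAGGAA, at -14 and -8, and no ATTGC. The Cxcr4 window held neither. Among all 32851 such windows of the RefSeq table, 23.3% held GAGGAA and 23.1% held ATTGC on either strand, so a match is common and describes the letters only.

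The receptors varied about as much as other genes, and none differed 2-fold between any arrays. The highest minus the lowest of the 4 log2 values was 0.72 for Csf3r, 0.59 for Cxcr4, 0.53 for Csf2ra, 0.48 for Il6ra, 0.23 for Il3ra, 0.22 for Csf1r and 0.06 for Cxcr2. The median of these ranges was 0.48, and over all genes compared it was 0.44. A range of at least 1.5-fold was reached by 2 of the 7 receptors and by 34.7% of all genes compared. Cxcr2 was at the flat end, since 98.8% of genes had a range at least as large as its own, while 25.4% had one at least as large as that of Csf3r.

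**Figure D1:**
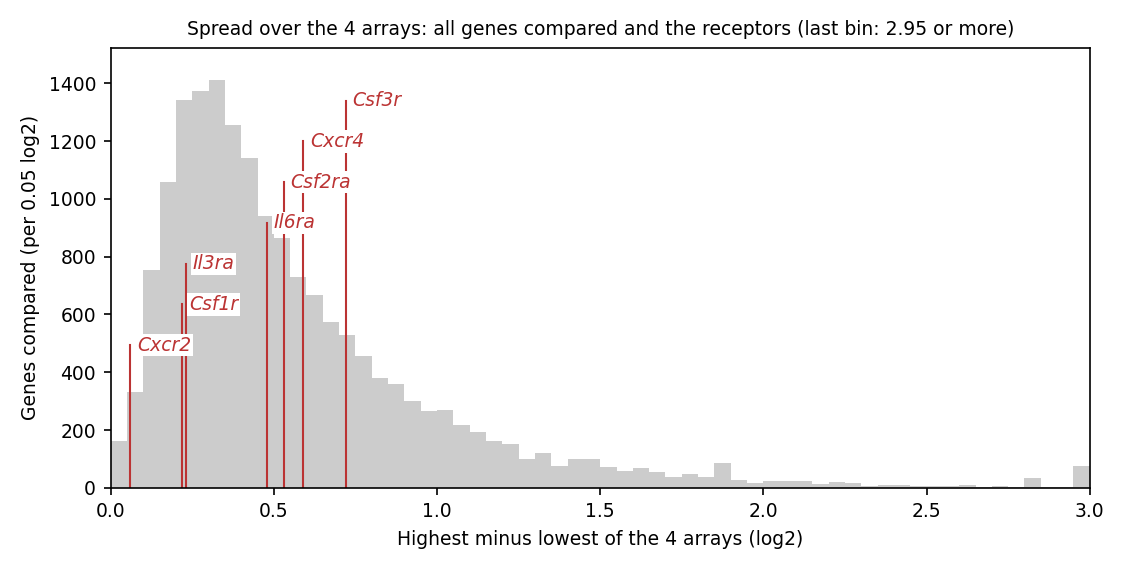
Grey bars count the genes compared (y axis) by the highest minus the lowest of their 4 log2 values (x axis, log2 units), and red lines mark the 7 receptors, with line heights set only to separate the names. The receptors lie between 0.06 (Cxcr2) and 0.72 (Csf3r), among the bulk of the genes.

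**Figure D2:**
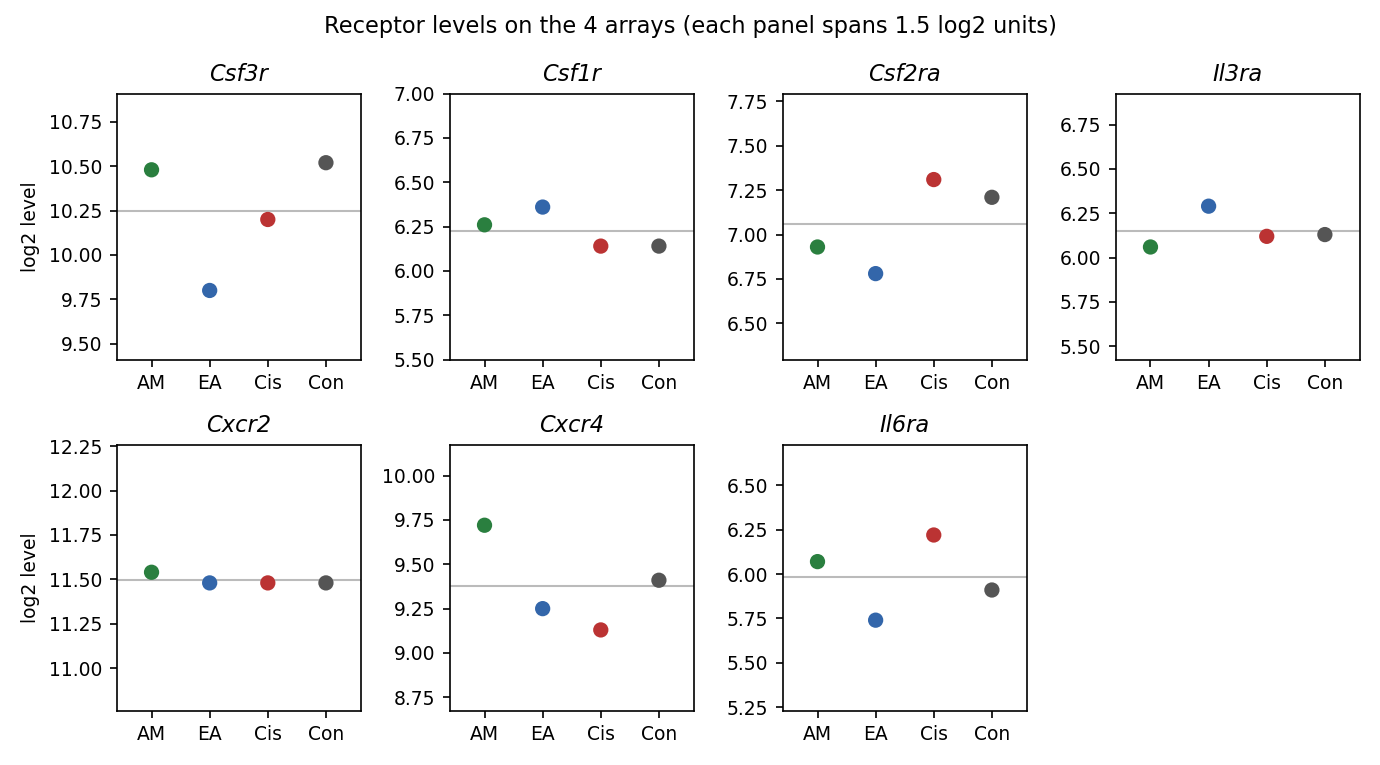
Log2 level (y axis) of each receptor on the astragalus (AM), electro-acupuncture (EA), cisplatin (Cis) and control (Con) array, 1 point per array, with the mean of the 4 as a grey line and no error bars because there are no replicates. Csf3r, Csf2ra and Il6ra have their lowest point on the electro-acupuncture array, and Cxcr4 its highest on the astragalus array.

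Csf3r had log2 levels of 10.48 in astragalus, 9.80 in electro-acupuncture, 10.20 in cisplatin and 10.52 in control marrow. The electro-acupuncture value was the low one, and astragalus and control were nearly level as deposited, with a difference of 0.08 once arrays were centred on their medians and -0.415 once the trend of the difference with level was removed by loess. Against control it was 1.65-fold lower in electro-acupuncture marrow (log2 difference -0.72), a size that 13.1% of the genes compared reached in that comparison. Cisplatin marrow was 1.25-fold lower than control marrow, and 30.6% of genes differed by that much or more. Astragalus stood 1.60-fold above electro-acupuncture, and 6.6% of genes differed as much between those arrays. That last difference was under 1.5-fold after quantile normalization (log2 difference 0.43) and after removal of the loess trend (0.38).

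Neutrophil markers ran with Csf3r in some comparisons and not in others. All 10 listed neutrophil genes passed the filter, and 9 are counted here, without S100a8, whose ceiling value allows no difference. Their median log2 difference between electro-acupuncture and control was 0.09, with 6 higher, 1 lower and 2 equal. Between astragalus and electro-acupuncture, where Csf3r was higher, all 9 were also higher, by a median of 0.50, with 3 at least 1.5-fold. Of all genes 9.86% were past that size there. Their median was 0.06, or 0.18 for genes at or above the 75th percentile of level. Between astragalus and control the 9 had a median of 0.69, while Csf3r differed by -0.04. There all genes had 0.05, or 0.19 at or above that percentile. After loess the astragalus differences of Mmp8, Elane and Mmp9 from control were 0.62, 1.12 and 0.41, down from 1.22, 1.59 and 0.63. The part of these markers in the Csf3r values was not tested. The markers at least 1.5-fold different between electro-acupuncture and control were Mpo, myeloperoxidase, at 13.25 against 11.70, and Elane, neutrophil elastase, at 11.70 against 10.34, both higher while Csf3r was lower. The 1 lower marker was Ltf, the secondary granule protein lactoferrin, at 16.22 against 16.39. Itgam, the integrin chain CD11b of neutrophils and monocytes, was like Csf3r the lowest in electro-acupuncture, at 10.75, with 11.42 in astragalus, 11.48 in cisplatin and 11.52 in control.

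Csf2ra, the GM-CSF chain, was at 6.93 in astragalus, 6.78 in electro-acupuncture, 7.31 in cisplatin and 7.21 in control marrow. Cisplatin and control were the higher values, and both other groups lay below them. The log2 difference from cisplatin was -0.53 in electro-acupuncture and -0.38 in astragalus marrow, sizes that 13.6% and 28.5% of genes reached. Against control they were -0.43 and -0.28. Csf2ra remained lower in both groups than in either of the other arrays under every scaling, filter and naming alternative tried, without reaching 1.5-fold in any.

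Il3ra, the IL-3 chain, was at 6.06 in astragalus, 6.29 in electro-acupuncture, 6.12 in cisplatin and 6.13 in control marrow, and Csf1r at 6.26, 6.36, 6.14 and 6.14 in the same groups. Both were highest in electro-acupuncture as deposited, by small amounts, though with arrays centred on their medians Csf1r was 0.06 higher in astragalus than there. Csf1r was 0.22 above both cisplatin and control there, and 43.7% and 52.8% of genes differed at least as much in those comparisons. Its levels were 0.99 log2 units above the filter on average, and those of Il3ra 0.92, so both read close to it.

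Monocyte and macrophage markers differed in both directions. Of the 9 listed 8 passed the filter, with a median difference between electro-acupuncture and control of 0.65, 6 higher and 2 lower. The median of all genes was 0.04. Fcgr1 passed narrowly, with a mean of 5.245, and was under the filter in control, at 4.66. The marker median lies between its difference, 0.71, and that of Adgre1, 0.58, so it leans on a gene near the filter. Cd68, a lysosomal protein of macrophages, was at 8.56 in astragalus, 9.08 in electro-acupuncture and 8.39 in cisplatin, against 7.86 in control. Mrc1, the mannose receptor, was at 8.49, 9.06 and 8.27 in these groups, against 7.65 in control. Ccr2, the chemokine receptor of inflammatory monocytes, was nearly flat at 8.24, 8.41 and 8.22, against 8.33 in control. Lower than control were Cx3cr1, the fractalkine receptor of monocytes, at 7.01, 7.23 and 7.08, against 7.49, and in 2 of the groups the monocyte surface gene Ly6c2, at 16.85, 16.13 and 15.99, against 16.43. The part of these markers in the Csf1r values was not tested.

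Il6ra was at 6.07 in astragalus, 5.74 in electro-acupuncture, 6.22 in cisplatin and 5.91 in control marrow. Its order ran from cisplatin at the top to electro-acupuncture at the bottom. The difference between those arrays was -0.48, and 16.4% of genes differed at least as much. Cisplatin was 0.31 above control. Il6ra was the closest of the 7 to the filter, 0.75 above it.

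Cxcr4 was at 9.72 in astragalus, 9.25 in electro-acupuncture, 9.13 in cisplatin and 9.41 in control marrow. Astragalus was the high value and cisplatin the low one. Astragalus was 1.51-fold above cisplatin (log2 difference 0.59), which 14.4% of genes matched or passed, and 0.31 above control (0.01 after loess). The difference from cisplatin was 0.38 after quantile normalization and 0.29 after loess, under 1.5-fold in both. Cisplatin was 0.28 below control and electro-acupuncture 0.16 below.

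Cxcr2 read 11.54 in astragalus and 11.48 on each of the other arrays. Equality to 2 decimals on those 3 arrays was rare among the 17174 genes compared that never reached the ceiling, at 0.518%, and more frequent among the 1402 with a mean of 11 or more, at 3.78%. The bound of 11 was chosen after the Cxcr2 values were seen. The sign of the astragalus differences is not settled: against control it was 0.06 in the deposited values, but -0.21 with quantile normalization and -0.43 with the loess trend removed.

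Across the 6 comparisons, receptors at least 1.5-fold different were at most 1 of 7. The astragalus and cisplatin comparison had 1, Cxcr4, with 14.4% of all genes past that size. Electro-acupuncture against control had 1, Csf3r, with 18.0% of all genes, and astragalus against electro-acupuncture had 1, also Csf3r, with 9.86%. Cisplatin against control had none, with 11.4% of all genes, and neither had astragalus against control (21.1%) or electro-acupuncture against cisplatin (11.3%). At 2-fold the receptors counted 0 throughout, where the share of all genes was 2.98% for cisplatin against control, 8.81% for astragalus against control and 7.26% for electro-acupuncture against control. It was 3.92% for astragalus against cisplatin, 3.91% for electro-acupuncture against cisplatin and 1.53% for astragalus against electro-acupuncture. A count of 1 in 7 is near these shares, so the receptors did not stand out from other genes by count.

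The median receptor difference was 0.06 in astragalus against cisplatin and 0.15 in astragalus against electro-acupuncture, both with 0.06 over all genes. It was 0.00 in electro-acupuncture against cisplatin and in cisplatin against control, with 0.02 and 0.01 over all genes. Against control it was 0.06 for astragalus (all genes 0.05) and -0.16 for electro-acupuncture (all genes 0.04). Comparisons that share an array are not independent of each other. Electro-acupuncture held the lowest value of 3 receptors, Csf3r, Csf2ra and Il6ra, and the highest of 2, Csf1r and Il3ra, where 23.2% of all genes had their lowest and 21.8% their highest value on that array. Control was alone the lowest array for no receptor, and for 32.5% of all genes. Ties are left out of all these figures: Csf1r was lowest in control and cisplatin alike (6.14), and Cxcr2 on every array but astragalus (11.48).

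**Figure D3:**
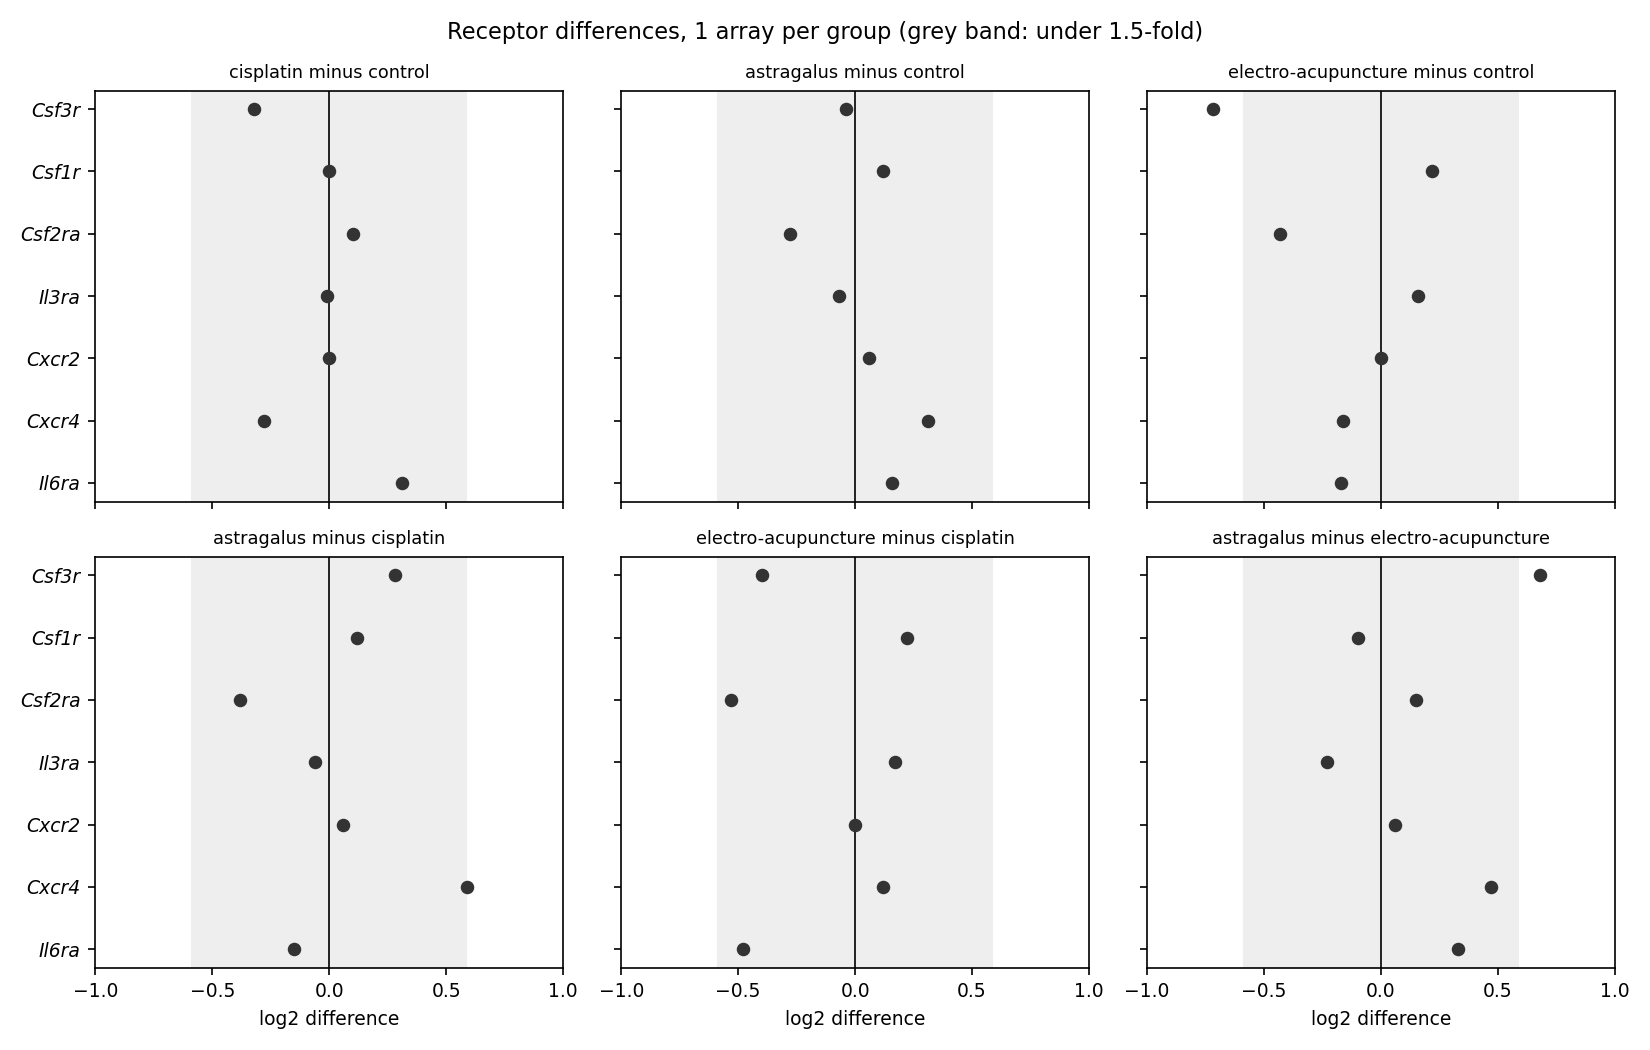
Log2 difference (x axis) of each receptor (y axis) in the 6 comparisons, 1 panel each, with the group named first minus the group named second and a grey band for differences under 1.5-fold. Points leave the band for Csf3r in 2 panels and touch its edge for Cxcr4 (0.59) in astragalus minus cisplatin.

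Some ligands of these receptors differed more. Of 14 ligand genes, all had a cluster and 6 passed the filter, and all 6 were higher than control in each of the other groups. In each of these comparisons 3 of the 6, Ppbp, Cxcl12 and Mif, were at least 1.5-fold higher, where the shares of all genes past 1.5-fold in either direction were those given above. Over all 6 ligand genes the median log2 differences from control were 0.94 in astragalus, 0.85 in electro-acupuncture and 0.56 in cisplatin.

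Cxcl12, the CXCR4 ligand of marrow stroma, was at 12.95 in astragalus, 13.28 in electro-acupuncture and 12.46 in cisplatin, against 10.91 in control. It was 4.11-fold, 5.17-fold and 2.93-fold higher than control, with all 3 arrays well apart from it. Ppbp, a platelet chemokine precursor whose product acts on CXCR2, was at 18.96, 19.04 and 18.63 in these groups, against 16.06 in control. Mif, a cytokine that also binds CXCR2 and CXCR4, was at 12.62, 12.36 and 11.63, against 10.95 in control. The cisplatin value of Mif was under 1.5-fold after quantile normalization (log2 difference 0.50).

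Markers of stroma and of megakaryocytes were also higher than control, some in the order of a ligand and some not. Lepr had the order of Cxcl12, at 8.49 in electro-acupuncture, 8.19 in astragalus, 8.13 in cisplatin and 6.97 in control. Bglap, Sparc and Col1a1 did not have it. The 6 stroma and bone markers, Cxcl12 among them, all passed the filter, with medians of 9.66 in astragalus, 9.47 in electro-acupuncture and 10.75 in cisplatin, against 7.96 in control. Single stroma markers ran from 7.54 to 12.95, from 7.25 to 13.28 and from 7.13 to 13.68 in these groups, against 6.41 to 10.91 in control. The highest marker was Cxcl12 itself in astragalus, electro-acupuncture and control, and Bglap in cisplatin. Electro-acupuncture, with the highest Cxcl12, was below cisplatin for Bglap, Sparc and Col1a1, the bone and matrix genes (log2 differences -3.23, -1.35 and -1.90), and above it for Lepr and Kitl, genes of marrow stromal cells (0.36 and 0.39). For Ppbp, 3 of the 4 listed megakaryocyte markers had a cluster and passed the filter, and Pf4 was at 17.20 in all 3 groups against 15.24 in control. The others, Itga2b and Gp9, were 0.36 and 0.33 log2 units lower in electro-acupuncture than in cisplatin, while Ppbp was 0.41 higher. Their part in the ligand differences was not tested.

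Csf1, the M-CSF gene, was at 5.92 in astragalus, 6.00 in electro-acupuncture and 6.16 in cisplatin, against 5.72 in control. Of the CXCR2 ligands, Cxcl3 was at 6.23, 6.31 and 6.09, against 6.04, and Cxcl5 at 6.73, 6.63 and 6.69, against 6.58. These differences were all under 1.5-fold. The remaining ligand genes were under the filter: Csf3, Csf2, Il3, Il5, Il6, Il34, Cxcl1 and Cxcl2, the genes of G-CSF, GM-CSF, IL-3, IL-5, IL-6, IL-34 and the neutrophil chemokines CXCL1 and CXCL2. Their means lay between 4.33 and 5.20, so no level of these cytokines could be compared.

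**Figure D4:**
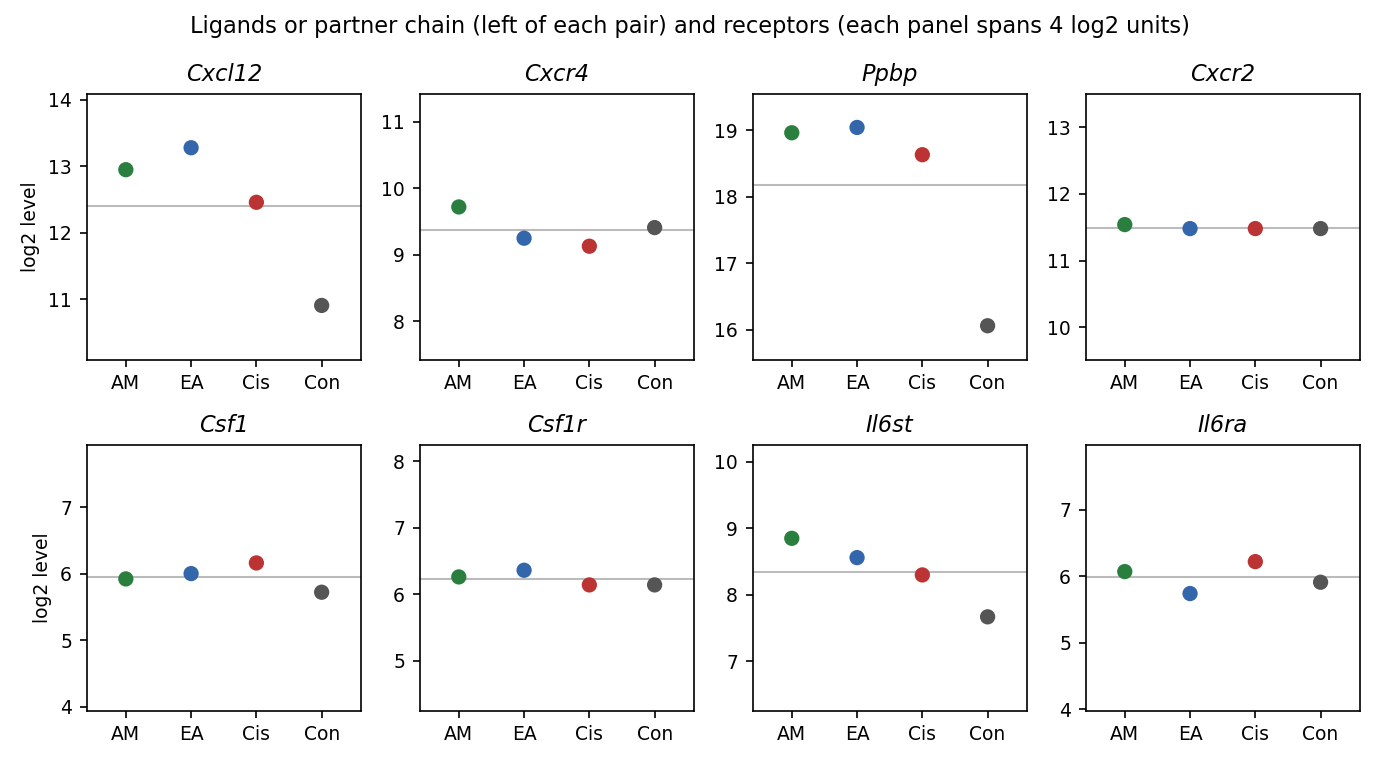
Log2 level (y axis) on the astragalus (AM), electro-acupuncture (EA), cisplatin (Cis) and control (Con) arrays, 1 point per array, for 3 ligand genes (Cxcl12, Ppbp, Csf1) and the gp130 gene Il6st, each beside its receptor gene, with the mean as a grey line. Cxcl12, Ppbp and Il6st have their lowest point in control, while Cxcr4, Cxcr2, Csf1r and Il6ra stay within 0.59 log2 units.

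Among partner chains and related receptors, 11 of 14 listed genes had a cluster and 6 passed the filter. Il6st was the 1 that was at least 1.5-fold different from control in each comparison with it. It was at 8.85 in astragalus, 8.56 in electro-acupuncture and 8.30 in cisplatin, against 7.67 in control, so the signalling chain of the IL-6 receptor was 2.27-fold, 1.85-fold and 1.55-fold higher while Il6ra itself differed by at most 0.31. Kit, the stem cell factor receptor, was at 6.85, 6.72 and 6.79, against 6.77 in control. Epor, the erythropoietin receptor, was at 8.51, 8.01 and 8.22, against 8.51.

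Ccr1, a chemokine receptor of neutrophils and monocytes, was at 7.13 in astragalus, 7.38 in electro-acupuncture and 7.39 in cisplatin, against 7.34 in control. C5ar1, the receptor of complement C5a, was at 6.56, 6.40 and 6.50, against 6.13. Neither reached 1.5-fold. Il5ra (the IL-5 chain), Flt3, Cxcr1, Cxcr3 and Ackr3 (a second CXCL12 receptor) were under the filter, and Fpr1 and Fpr2 were among those not analysed here.

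Retention and release genes, the integrins, proteases and adhesion ligands that act beside CXCR4, differed in both directions. Of 15 listed, 14 passed the filter. At least 1.5-fold above control were 8 in astragalus, 5 in electro-acupuncture and 5 in cisplatin, with 1, 2 and 1 below it. Of all genes 21.1%, 18.0% and 11.4% were past that size in either direction. Among genes at or above the 75th percentile of level, as all 14 are, these shares were 31.3%, 26.1% and 16.2%. Of the astragalus 8, Selplg and Mmp9 were under 1.5-fold after quantile normalization (0.47 and 0.48) and after loess (0.40 and 0.41). Vcam1, the adhesion ligand of marrow stroma and macrophages, was at 10.00, 10.25 and 9.91, against 8.69 in control. Dpp4, a peptidase that inactivates CXCL12, was at 7.58, 7.53 and 7.40, against 8.86 in control, and was 2.75-fold lower in cisplatin. Ctsg, the neutrophil serine protease cathepsin G, was at 10.72, 10.57 and 10.02, against 8.71.

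Elane, neutrophil elastase, was 3.01-fold higher than control in astragalus, 2.57-fold in electro-acupuncture and 1.815-fold in cisplatin. Between astragalus and cisplatin, 4 of the 14 were at least 1.5-fold higher, where 14.4% of all genes were past that size in either direction. Among genes at or above the 75th percentile of level the share was 21.0%. The 4 included Mmp8, neutrophil collagenase, 2.08-fold higher (14.21 against 13.15), and Selplg, the selectin ligand PSGL-1, 1.78-fold higher (8.55 against 7.72). The other 2, Ctsg and Elane, were 0.50 and 0.52 after quantile normalization and 0.355 and 0.31 after loess, under 1.5-fold. Selplg was also 1.66-fold above cisplatin in electro-acupuncture.

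Downstream of the cytokine receptors, 18 of 25 JAK-STAT and Ras signalling genes passed the filter. At least 1.5-fold different from control were 2 in astragalus, 2 in electro-acupuncture and 3 in cisplatin, all of them higher. The shares of all genes past that size in either direction were 21.1%, 18.0% and 11.4%. Ptpn11, the phosphatase SHP2, was at 10.57 in astragalus, 10.28 in electro-acupuncture and 10.28 in cisplatin, against 9.44 in control. Pim1, a kinase gene that STAT5 induces, was at 8.69 in astragalus and 8.62 in electro-acupuncture, against 9.40 in cisplatin, and at 8.67 in control, so cisplatin alone was high. Cbl, a ubiquitin ligase that ends receptor signalling, was at 14.28, 13.74 and 13.94, against 13.14 in control. With the mean of its clusters the Cbl differences from control were 0.325 in electro-acupuncture and 0.335 in cisplatin, so its clusters disagree. The electro-acupuncture difference was also under 1.5-fold after quantile normalization (0.49), median centring (0.56) and loess (0.29). That of astragalus from control was under it after loess (0.525).

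Electro-acupuncture had 14 of the 18 signalling genes below cisplatin, 3 above and 1 equal, with a median of -0.12, where all genes had 0.02. A single gene of the 18, Pim1, was past 1.5-fold there, where 11.3% of all genes were. Between astragalus and electro-acupuncture 16 of 18 were higher in astragalus, with a median of 0.175. The median over all genes was 0.06, and over the 9226 genes at or above the 75th percentile of level it was 0.18, about the same as the list. Jak1, the kinase that gp130 uses, led at 10.79 against 10.20, and was under 1.5-fold after quantile normalization and after loess, at 0.32 and 0.29.

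Of 17 chemokine receptor signalling genes 15 passed the filter. Past 1.5-fold from control in either direction were 5 in astragalus, 3 in electro-acupuncture and 1 in cisplatin. The shares of all genes were 21.1%, 18.0% and 11.4%. Rgs18, a brake on G protein signalling in platelets and megakaryocytes, was at 12.73 in astragalus, 12.82 in electro-acupuncture and 12.61 in cisplatin, against 11.35 in control. Gnai2, the inhibitory G protein through which CXCR2 and CXCR4 signal, was at 14.15, 13.57 and 13.30, against 12.85. Rac2, the small GTPase of neutrophil migration, was at 12.27 in astragalus and 11.66 in electro-acupuncture, with 11.27 in cisplatin and 11.24 in control. Grk6, a kinase that desensitizes CXCR4, was lowest in electro-acupuncture, at 7.65, with 8.05 in astragalus, 8.30 in cisplatin and 8.46 in control.

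With the loess trend removed the astragalus differences of Rac2 from control and cisplatin were 0.53 and 0.57, under 1.5-fold. That of Gnai2 from cisplatin was 0.40, and its electro-acupuncture difference from control was 0.42.

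Of 14 myeloid transcription factor genes 12 passed the filter. In astragalus, electro-acupuncture and cisplatin alike, 2 of the 12 differed at least 1.5-fold from control. Of all genes 21.1%, 18.0% and 11.4% did so. Myb, a factor of immature blood cells, was at 10.59 in astragalus, 10.24 in electro-acupuncture and 10.34 in cisplatin, against 11.66 in control, and was 2.10-fold, 2.68-fold and 2.50-fold lower. Spi1 was at 7.84, 7.33 and 7.63, against 7.10 in control, with 1.67-fold in astragalus the 1 difference past 1.5-fold. Cebpa was at 8.20, 7.87 and 8.48, against 7.80, and was 1.60-fold above control in cisplatin and 1.53-fold below cisplatin in electro-acupuncture.

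Irf8, a factor of monocyte and dendritic cell fate, was 1.65-fold below control in electro-acupuncture (6.65 against 7.37). Cebpd was 1.55-fold above cisplatin in astragalus (7.53 against 6.90), and 0.52 after quantile normalization, under 1.5-fold. Against cisplatin, electro-acupuncture had 10 of the 12 factor genes lower and 2 higher, with a median of -0.18, against 0.02 over all genes. Only 1 of the 12, Cebpa, was past 1.5-fold there, where 11.3% of all genes were. B cell markers also differed: the 5 above the filter had medians of 7.62 in astragalus, 7.36 in electro-acupuncture and 7.66 in cisplatin, against 8.43 in control, and their part in the Myb and Irf8 values was not tested.

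Genes with a profile most like a receptor were sought among 10869 protein-coding genes by the root mean square distance of the 4 values after removal of each gene's mean, so the likeness rests on 4 arrays. For Csf3r the nearest were Sorl1 (0.035), Rnf167 (0.036) and Tet3 (0.038). Sorl1, a sorting receptor, was at 8.91 in astragalus, 8.27 in electro-acupuncture, 8.66 in cisplatin and 8.90 in control. For Cxcr4 they were Tnfaip2 (0.019), Klhl12 and Ptpra (each 0.022), and for Csf2ra Atp6v0b (0.013), Sdccag8 (0.019) and Trim41 (0.021). Tnfaip2, a gene induced by tumour necrosis factor, was at 8.78, 8.36, 8.23 and 8.51 in astragalus, electro-acupuncture, cisplatin and control.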

How the data were processed

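Log2 expression values, 1 per transcript cluster and array, were used as deposited. Per the submitters' processing notes the authors made them with Affymetrix Expression Console, and its version and how probes were summarised are not given by these sources. Their range, 2.70 to 19.93, was taken as showing the log2 scale. Of 65956 clusters 32750 were in the platform's gene table. After symbols were updated through a RefSeq table (GRCm38.p6), 31263 named 1 gene and 1487 several, which were not used, while 33206 clusters were unlisted and stayed unnamed. The cluster of highest mean stood for a gene. Genes with a mean at or above 5.235, the median of all clusters, were compared.

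Arrays were subtracted pairwise on the log2 scale, giving 6 comparisons, with genes counted at 1.5-fold and 2-fold. No model was fitted and no p-value is given. Computations used Python 3.11.15, pandas 2.3.3 and statsmodels 0.14.6 (loess) and were tested on simulated data. Pathway genes were named by a fixed rule: all ligands and partner chains above the filter, and up to 4 genes per other list and comparison, the largest past 1.5-fold. Individual cell type markers were chosen after their values were seen. The receptors, lists and tests were chosen with earlier results of these data known. The tried alternatives were quantile normalization, median centring, loess, 2 other filters, the mean of a gene's clusters and the platform's symbols.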

Additional observations from a re-analysis of the deposited data

How the results depend on the processing

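Of 276 single receptor differences recomputed under an alternative, 43 moved by 0.1 or more, 4 fell below 1.5-fold and 1 passed it, and none that was at least 1.5-fold changed sign. A sign opposite to the deposited one was found for 12 values, 6 of them Cxcr2 in astragalus comparisons (to -0.43 against control after loess), and Csf3r between astragalus and cisplatin was -0.08 after loess. Their cause was not tested. The count of receptors at least 1.5-fold different was 0 after quantile normalization and after loess, both for astragalus against cisplatin and for astragalus against electro-acupuncture, and 2 for the last with arrays centred on their medians, when Cxcr4 (0.63) passed as well. The electro-acupuncture and control count stayed at 1.

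With arrays centred, median receptor differences of astragalus were 0.18 against control, 0.17 against cisplatin and 0.31 against electro-acupuncture, while the medians of all genes were 0.17, 0.17 and 0.22. After loess they were -0.069 against control and -0.08 against cisplatin, and -0.12 for electro-acupuncture against cisplatin. Quantile normalization gave -0.056 for astragalus against cisplatin and 0.13 for electro-acupuncture against cisplatin. With the filter at the 75th percentile, which leaves fewer receptors, they were -0.14 for cisplatin against control, -0.29 for electro-acupuncture against control, 0.17 for astragalus against cisplatin, -0.20 for electro-acupuncture against cisplatin and 0.31 for astragalus against electro-acupuncture, with all-gene medians of 0.02, 0.03, 0.18, 0.01 and 0.18.

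Of 74 differences of other pathway genes of at least 1.5-fold, none changed sign under an alternative, and 35 of 443 recomputed values were under 1.5-fold. No array could be left out, since each group has 1. No paired analysis was possible because no group has replicates.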

Other observations

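Equal values on 3 arrays, as for Cxcr2, occurred for every choice of 3 arrays among bright genes. Of the 1402 genes with a mean of 11 or more and no value at the ceiling, 3.78% were equal to 2 decimals on electro-acupuncture, cisplatin and control. The other choices gave 3.28% (astragalus, cisplatin and control), 3.07% (astragalus, electro-acupuncture and control) and 4.42% (astragalus, electro-acupuncture and cisplatin). Over all 17174 genes below the ceiling these shares were 0.518%, 0.437%, 0.443% and 0.542%. Pf4, at 17.20 on the 3 treated arrays, and Ngp, a neutrophil granule gene at 18.77 on the electro-acupuncture, cisplatin and control arrays, are further cases. The cause of these equal values was not tested.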
